A study of Drosophila melanogaster with 60 samples.

Results

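RNA of abdominal fat tissue was compared in the light phase between flies with Clk-Jrk, a mutant form of Clock (Clk), which encodes an activator of the circadian clock, and wild-type flies of the strain w1118. The comparison used the 12 libraries of both genotypes at 25 °C and at zeitgeber times (ZT, hours after lights on) 2, 6 and 10, out of 60 libraries in the series. Each genotype had 6 of them, from 2 independent samplings at each of 3 times. The question was which genes had a level by day that differed with the Clk allele.

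The series follows fat tissue of mated female Drosophila melanogaster around the day in w1118 at 18 °C and 25 °C and in Clk-Jrk at 25 °C. In both groups used here mated females, about 3 days old at the start, then spent 5 days under cycles of 12 h light and 12 h dark on a diet of sucrose and yeast, and were pooled by 10 per sample. Fat tissue was taken along with the abdominal epidermis it adheres to, after gut, ovaries and Malpighian tubules had been dissected away. The Clk-Jrk allele had been backcrossed 7 times to w1118 and is carried by the whole animal, not by fat tissue alone. Flies came from a pair of incubators with opposite light schedules, and which incubator a sample came from is not stated in the labels. The genotypes were deposited in separate tables, so genotype and any difference in handling between the tables cannot be told apart.

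In the fly clock, the proteins CLK and CYC bind E-box sequences as a pair and activate per, tim, vri, Pdp1 and cwo. PER and TIM enter the nucleus in the night and inhibit CLK and CYC, while VRI represses and PDP1 activates the Clk gene itself. The Jrk mutation truncates the activation domain of CLK, and the resulting protein is known to interfere with the normal one. The fat body, which does the work of liver and fat tissue in flies, has its own clock and handles nutrient storage, detoxification and the humoral immune response.

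Libraries held from 6471269 to 46590109 estimated counts, both extremes being wild type at ZT 2, and no library pair was identical. Levels of single genes below are CPM, counts scaled to the library total times its TMM factor. By day these factors ran from 0.7788 (Clk-Jrk replicate 2 at ZT 6) to 1.408 (wild-type replicate 1 at ZT 2). Summed levels of marker lists and of mitochondrially encoded RNA are CPM of the library total alone, with no TMM factor. Each ± is the SE of a fitted log2 difference (Clk-Jrk minus wild type, n = 6 per genotype) unless marked SD. Adjusted p-values are from edgeR's quasi-likelihood test with time as a block. They measure the spread between these samples, since nothing beyond the 2 independent samplings says how far the samples were separate. As the samples are bulk tissue, fewer cells of a type and less RNA per cell cannot be told apart. Of 8886 genes tested, 1108 were higher in Clk-Jrk (12.5%) and 1127 lower (12.7%) at an adjusted p under 0.05, in all 25.2%. Their median absolute log2 difference was 0.72, and 624 changed at least 2-fold, 184 of them higher and 440 lower. These shares are the background for each count of named genes below.

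The 17 fat body markers summed to between 87500 and 222000 CPM, while the ovary, gut and muscle lists reached at most 9390, 6130 and 6470 CPM, and 12 markers of oenocytes and epidermis, collected with the fat, 52100 to 98500 CPM. Sums depend on the genes listed. The 3 wild-type libraries of replicate 1 stood apart from wild-type replicate 2. Their fat body marker genes summed to between 87500 and 134000 CPM, against 201000 to 222000 in wild-type replicate 2 and 168000 to 215000 in Clk-Jrk. Mitochondrially encoded RNA summed to between 44100 and 70700 CPM there, against 22000 to 23600 in wild-type replicate 2 and 13300 to 47000 in Clk-Jrk. Without these 3 libraries 661 genes were higher and 918 lower, and 1247 of the 2235 calls were shared. Of 131 named genes that passed, 34 did not pass in that setting (adjusted p from 0.0508 to 0.172), among them CkIIbeta, cu, Acox57D-p, srl, SREBP, fabp, Hn, Glut1, Pgm2a, Prx2, Keap1, ERp60, FarO, Hsp70Bb and Vm26Ab. Without replicate 2 of both genotypes, 0 genes were higher and 2 lower in edgeR (430 and 808 at an unadjusted p under 0.05), while without replicate 1 861 were higher and 1151 lower. On the TPM scale with no centring, limma called 341 genes higher and 1734 lower, so that 16.4% of its calls were higher against 49.6% in edgeR. The median gene lay at −0.30 on that scale and at −0.02 in edgeR, so small differences have no fixed sign between these scales.

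RNA of Clk itself did not pass. It ranged from 11.5 to 27.0 CPM in wild type (median 15.1) and from 9.54 to 19.8 CPM in Clk-Jrk (median 14.6), with a log2 difference of −0.22 ± 0.16 (adjusted p = 0.339). The Jrk lesion alters the protein, so the RNA level does not check the labels.

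Of the direct targets of CLK in the clock, tim, vri, Pdp1 and cwo were lower in Clk-Jrk by day. RNA of timeless (tim, FBgn0014396), the light-sensitive partner of PER, ranged from 46.6 to 321 CPM in wild type (median 122) and from 5.47 to 24.6 CPM in Clk-Jrk (median 19.7). The groups did not overlap, and tim was 7.30-fold lower (log2 difference −2.87 ± 0.55, adjusted p = 0.00638). Over all genes tested, 4.77% were lower and 6.07% higher with no overlap between the groups. RNA of vrille (vri, FBgn0016076), the repressor of Clk, ranged from 22.2 to 112 CPM in wild type (median 49.9) and from 7.34 to 15.4 CPM in Clk-Jrk (median 12.1). Here too the groups did not overlap, and vri was 4.48-fold lower (−2.16 ± 0.32, adjusted p = 0.00204). RNA of Pdp1 (FBgn0016694), the activator of Clk, ranged from 41.8 to 148 CPM in wild type and from 20.8 to 50.5 CPM in Clk-Jrk. The lowest wild-type library, replicate 1 at ZT 2, lay among the mutant ones, and the gene was 2.51-fold lower (−1.33 ± 0.27, adjusted p = 0.00836). RNA of clockwork orange (cwo, FBgn0259938), a repressor that competes for E-boxes, fell by less, 1.46-fold (−0.55 ± 0.12, adjusted p = 0.0113).

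RNA of period (per, FBgn0003068), also a CLK target, did not pass by day. It ranged from 5.06 to 14.3 CPM in wild type and from 6.24 to 8.96 CPM in Clk-Jrk, with a difference of −0.47 ± 0.26 (adjusted p = 0.191). Without the 3 wild-type libraries of replicate 1, which include its lowest and highest values, per was lower (−0.80, adjusted p = 0.012). RNA of cryptochrome (cry, FBgn0025680), the blue-light photoreceptor that leads TIM to degradation, was the core clock gene that rose, from a median of 129 CPM (range 91.5 to 219) to one of 271 CPM (187 to 317). It was 1.79-fold higher (0.84 ± 0.21, adjusted p = 0.0184), and it no longer passed without wild-type replicate 1 (0.51, adjusted p = 0.0967). RNA of cyc, the partner of CLK, differed by 0.08 ± 0.11 and overlapped fully (adjusted p = 0.599).

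Among genes of clock kinases and protein turnover, sgg, the GSK-3 homologue that phosphorylates TIM, fell 1.54-fold (adjusted p = 0.00246) and dco, the CK1 kinase doubletime, fell 1.5-fold (adjusted p = 0.0221). The kinase gene nmo ranged from 10.7 to 21.8 CPM in wild type and from 3.42 to 8.80 CPM in Clk-Jrk with no overlap, 2.64-fold lower (−1.40 ± 0.21, adjusted p = 0.00199). In each genotype the highest nmo and dco values came from the daytime library highest in ovary markers. These were wild-type replicate 1 at ZT 2 (21.8 and 137 CPM) and Clk-Jrk replicate 1 at ZT 10 (8.80 and 78.4 CPM). Without wild-type replicate 1 at ZT 2 and ZT 10 both genes still passed (−1.32 and −0.52, edgeR adjusted p = 0.00672 and 0.0189). Whether ovary RNA had a part in these values was not tested. CkIIbeta, a subunit of casein kinase 2, was lower by a small step (−0.32 ± 0.11, adjusted p = 0.0491), and CkIIalpha, slmb and jet did not pass. In all, 8 of 15 core clock genes were lower and 1 higher, with a list median of −0.47 against −0.02 over all genes. The count of lower members was 8 in DESeq2, without wild-type replicate 1 and on the TPM scale alike. It was 7 with each TPM library centred on its median, and 7 without wild-type replicate 1 at ZT 2 and ZT 10. With fewer samples it was 4 without ZT 6, 1 without ZT 2 and 0 without replicate 2.

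**Figure D1:**
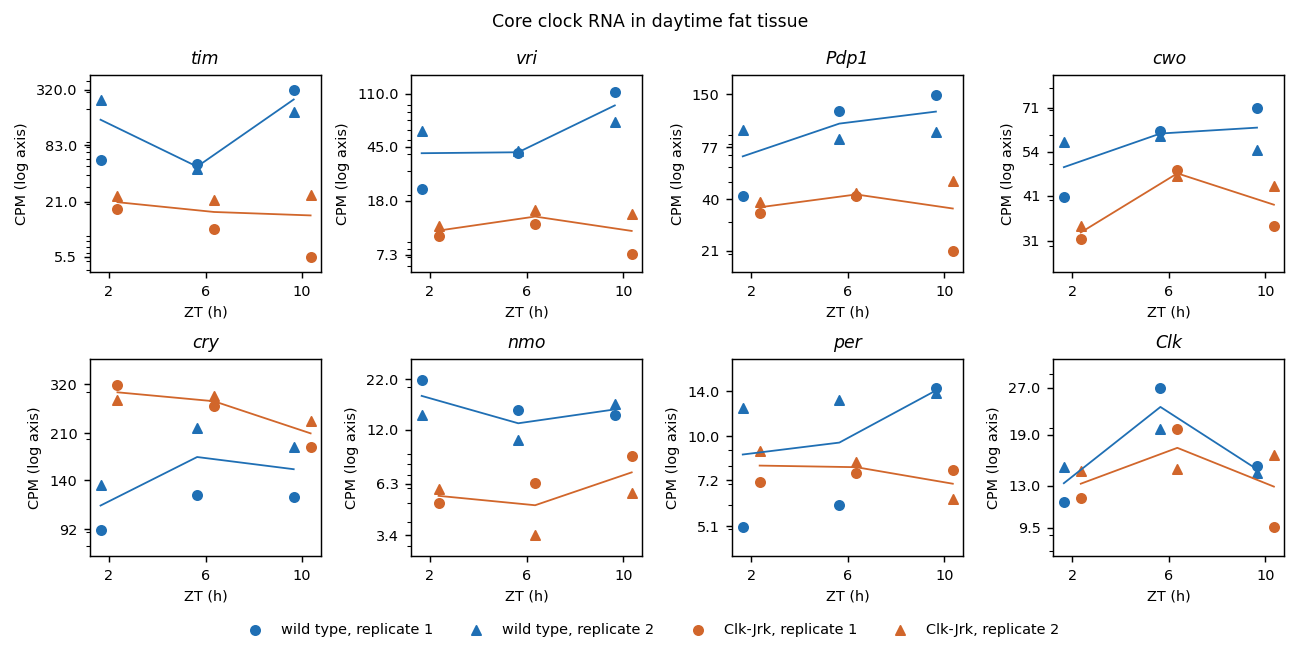
RNA of 8 core clock genes in the daytime libraries, in CPM on log axes with a separate range per panel, against zeitgeber time in h. Points are single libraries (circles replicate 1, triangles replicate 2), lines join the arithmetic means of CPM, and blue and orange mark wild type and Clk-Jrk. For tim, vri and nmo no orange point reaches a blue one, while Clk and per overlap.

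The difference in tim was present at each time in the light, with the log2 difference at −2.55 at ZT 2, −1.67 at ZT 6 and −4.38 at ZT 10. The wild-type replicates of tim at ZT 2 lay at 58.0 and 251 CPM, and at ZT 10 at 321 and 185 CPM. For vri the difference was −1.72, −1.56 and −3.07 at these times, and for cry it was 1.42, 0.74 and 0.47. Whether any difference varied between ZT 2, 6 and 10 was tested on both interaction terms together, and 0 of 8886 genes passed in edgeR (309 at an unadjusted p under 0.05, 3.48%). DESeq2 called 13 and limma on TPM 1. On simulated data with 2 libraries per genotype and time, the edgeR test recovered 0 of 66 genes changed 4-fold, so a count of 0 here says nothing of whether the differences varied through the day.

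Among the 8 clock output genes tested, 2 rose and 1 fell. The P450 gene Cyp6a21 ranged from 10.2 to 22.2 CPM in wild type and from 36.8 to 64.5 CPM in Clk-Jrk with no overlap, 3.33-fold higher (1.74 ± 0.21, adjusted p = 0.000918). The gene cu, the fly nocturnin that removes poly(A) tails, was 1.73-fold higher (adjusted p = 0.0206), but it did not pass without wild-type replicate 1 (0.50, adjusted p = 0.117) or without its libraries at ZT 2 and ZT 10 alone (adjusted p = 0.0542).

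Of 18 genes of the juvenile hormone and ecdysone response 10 were lower and 2 higher, 66.7% called, and those that were lower are mostly receptors and transcription factors. RNA of the ecdysone receptor gene EcR (FBgn0000546) lay between 22 and 24.1 CPM in all 6 wild-type libraries and between 6.94 and 12.0 CPM in Clk-Jrk. It was 2.42-fold lower, with no overlap (−1.28 ± 0.13, adjusted p = 0.00028). The receptor genes ftz-f1 and Eip75B fell 2.83-fold and 2.04-fold, also without overlap (adjusted p = 0.00348 and 0.000945). Hr4, br, Eip93F and Hr39, further transcription factors of the ecdysone cascade, usp, which pairs with EcR, its coactivator tai, and Met, the juvenile hormone receptor, were lower as well, by log2 differences from −1.47 (Hr4) to −0.45 (Met). The highest ftz-f1 and Hr39 values also came from the library of each genotype highest in ovary markers. They were 51.5 and 22.4 CPM in wild-type replicate 1 at ZT 2, and 26.3 and 12.9 CPM in Clk-Jrk replicate 1 at ZT 10. Both genes passed without wild-type replicate 1 at ZT 2 and ZT 10 (adjusted p = 0.0106 and 0.0234). A part of ovary RNA in these values was not tested. The members that rose were the epoxide hydrolase genes Jheh1 (2.51) and Jheh2 (1.58), whose products degrade juvenile hormone. Jheh2 rose from a median of 263 CPM (164 to 387) to one of 875 CPM (559 to 1040), 2.99-fold with no overlap (adjusted p = 0.00153). In the absence of wild-type replicate 1, 6 members were lower and 2 higher.

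Genes of insulin and FoxO signalling were lower in 8 of 18 cases and higher in 1, Rheb. RNA of Ilp6 (FBgn0044047), the insulin-like peptide secreted by the fat body, ranged from 14.2 to 37.4 CPM in wild type (median 34.3) and from 6.37 to 12.2 CPM in Clk-Jrk (median 8.14). It was 3.59-fold lower with no overlap (−1.84 ± 0.23, adjusted p = 0.000918). The insulin receptor gene InR was 2.55-fold lower, from a median of 10.4 CPM to one of 3.88 CPM (adjusted p = 0.00338). The kinase gene Akt and REPTOR, a transcription factor held back by TORC1, fell 1.63-fold and 1.83-fold, both without overlap (adjusted p = 0.00134 and 0.00153). Further members that fell included Pi3K21B, an adaptor of PI3 kinase, foxo, the transcription factor that insulin signalling holds out of the nucleus, and S6k, a kinase downstream of TORC1, by log2 differences of −0.85, −0.59 and −0.36. With wild-type replicate 1 left out, 9 members were lower and 0 higher.

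Many genes of detoxification enzymes were higher. Of 72 cytochrome P450 genes tested, 35 rose and 0 fell, 48.6% against 12.5% higher over all genes, and 17 of them rose at least 2-fold. RNA of Cyp6a8 ranged from 46.8 to 466 CPM in wild type (median 234) and from 1710 to 3420 CPM in Clk-Jrk (median 2380), a 10.8-fold difference with no overlap (3.43 ± 0.42, adjusted p = 0.000924). RNA of Cyp6w1 had a median of 489 CPM in wild type (highest 1040) and ranged from 2770 to 4890 CPM in Clk-Jrk, 7.53-fold higher (adjusted p = 0.00391). The size of the Cyp6a8 difference varied with the sampling, 2.87 without replicate 1 and 4.18 without replicate 2.

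Further P450 genes without overlap were Cyp309a2 (15.2-fold, wild-type median 0.595 CPM), Cyp12d1-p (8.84-fold), Cyp9h1 (4.99-fold) and Cyp4ac1 (4.96-fold), with adjusted p-values of 0.000163, 0.00325, 0.000243 and 0.00042. Cyp12d1-p has a near-identical copy, and how reads were divided between such copies is uncertain. Cyp6g1 and Cyp6a2, known from insecticide resistance, were among those that rose (log2 differences 1.61 and 2.04). The list median was 0.57, and 25 members were higher and 1 lower without wild-type replicate 1. On the TPM scale 22 were higher and 3 lower, with a median of 0.29.

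Of 21 UDP-glycosyltransferases, which conjugate sugars to foreign and internal compounds, 6 rose and 1, Ugt35B1, fell. Ugt302C1 lay between 3.73 and 6.56 CPM in wild type and between 41.7 and 72.9 CPM in Clk-Jrk, 11.3-fold higher with no overlap (3.50 ± 0.19, adjusted p = 5.32e-06). Ugt35C1 was 3.32-fold and Ugt37A3 4.61-fold higher. Of 29 glutathione transferases 7 rose and 1, GstE10, fell, 27.6% called against 25.2% over all genes. GstE3 rose from a median of 47.2 CPM (15.9 to 59.2) to one of 130 CPM (94.1 to 172), 3.46-fold with no overlap (adjusted p = 0.00129), and GstT1 and GstZ2 rose 1.60-fold and 2.55-fold without overlap. Of 22 antioxidant genes 7 rose, among them the peroxiredoxins Prx6a (1.39-fold), Prx2 and Prx3 and Keap1, the inhibitor of the Nrf2 homologue CncC (1.48-fold). Without wild-type replicate 1 the counts of higher and lower members were 5 and 0, 8 and 1, and 2 and 1 in these 3 lists. On the TPM scale the median of the UDP-glycosyltransferases lay at −0.02, and 1 antioxidant gene was higher and 3 lower.

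**Figure D2:**
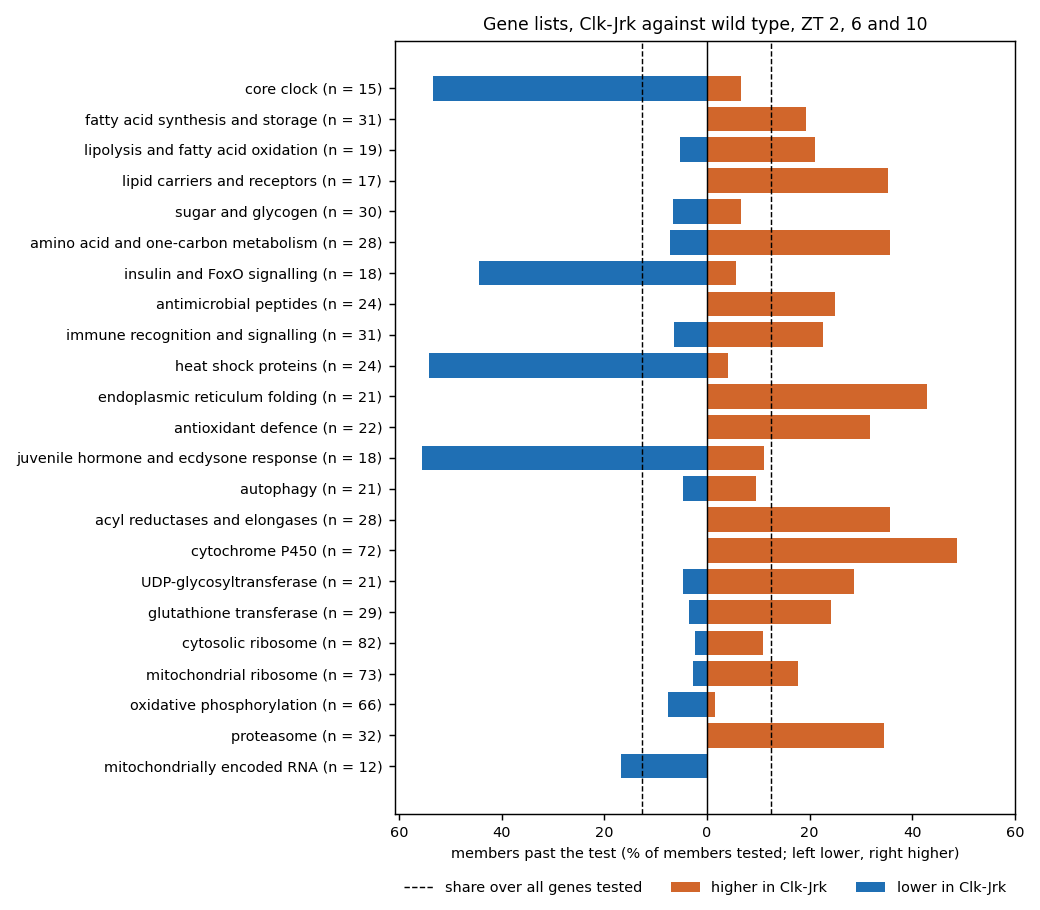
Share of the tested members of each gene list that passed the daytime test, in percent, with higher in Clk-Jrk to the right in orange and lower to the left in blue; dashed lines mark the shares over all genes tested, 12.5% higher and 12.7% lower. Cytochrome P450 genes reach 48.6% to the right, and the core clock, heat shock, insulin and ecdysone lists lie mostly to the left.

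Genes of amino acid and one-carbon metabolism were higher in 10 of 28 cases and lower in 2. Sardh (FBgn0034276), sarcosine dehydrogenase, ranged from 0.879 to 5.36 CPM in wild type (median 1.56) and from 14.1 to 46.8 CPM in Clk-Jrk (median 31.9). It was 14.8-fold higher with no overlap (3.89 ± 0.48, adjusted p = 0.000913). Members that rose included 5 enzymes of phenylalanine and tyrosine breakdown, grouped here after their values were seen. These were Hn, phenylalanine hydroxylase (0.90), Tat, tyrosine aminotransferase (1.0), Hpd (1.38), hgo (1.33) and Faa (0.82). Hpd rose from a median of 154 CPM (109 to 180) to one of 393 CPM (280 to 485), 2.61-fold with no overlap (adjusted p = 0.000531), and hgo 2.51-fold with no overlap (adjusted p = 0.00164). Hn is the tested gene next to Clk in gene order, and it did not pass without wild-type replicate 1 (0.59, adjusted p = 0.0699). The members that fell were Nmdmc, a mitochondrial folate enzyme (2.47-fold lower with no overlap, adjusted p = 0.000451), and the glutamine synthetase gene Gs1 (−0.50). On the TPM scale 8 members were higher and 5 lower.

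Of the lipid genes, Dgat2 and srl changed at least 2-fold. RNA of Dgat2, a diacylglycerol acyltransferase of the last step of fat synthesis, ranged from 2.64 to 45.8 CPM in wild type (median 19.8) and from 56.9 to 138 CPM in Clk-Jrk (median 72.3). It was 4.08-fold higher with no overlap (2.03 ± 0.47, adjusted p = 0.0139), and its difference was 1.23 without replicate 1 and 3.27 without replicate 2. In fatty acid synthesis and storage 6 of 31 members rose and 0 fell, 19.4% called, against 25.2% called in either direction and 12.5% higher over all genes. Among those that rose were SREBP, the lipogenic transcription factor (1.47-fold), and Agpat3 (1.60-fold). In lipolysis and fatty acid oxidation 4 of 19 rose, with the peroxisomal oxidase gene Acox57D-p at 1.86-fold, and 1 fell, srl, the PGC-1 homologue (2.12-fold lower, adjusted p = 0.0339). The highest srl values came from the library of each genotype highest in ovary markers. They were 117 CPM in wild-type replicate 1 at ZT 2 and 64.7 CPM in Clk-Jrk replicate 1 at ZT 10. Without wild-type replicate 1 at ZT 2 and ZT 10 srl did not pass (−1.02, adjusted p = 0.0579). A part of ovary RNA in its difference was not tested. Of 17 lipid carriers and receptors 6 rose, with Mtp, which loads lipid onto lipoproteins, at 1.85-fold (adjusted p = 0.0126) and the fatty acid binding protein gene fabp at 1.58-fold. Without wild-type replicate 1 these 3 lists held 2, 1 and 4 higher members, and on the TPM scale their medians were −0.02, −0.06 and −0.12 against 0.30, 0.24 and 0.33 in edgeR.

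Sugar and glycogen genes were called in 4 of 30 cases, 13.3%, under the background share. The glucosidase gene tobi, a target of insulin and adipokinetic hormone signals, rose from a median of 730 CPM (178 to 1350) to one of 2770 CPM (1090 to 4000), 3.82-fold (adjusted p = 0.0186). Its difference no longer passed without wild-type replicate 1 (1.55, adjusted p = 0.0848). Glyp, glycogen phosphorylase, was 1.78-fold lower, from a median of 1240 CPM to one of 607 CPM (adjusted p = 0.0399). Glut1 was lower and Pgm2a higher.

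The larval storage protein genes that passed the filter, Lsp2 and Lsp1beta, were both higher. Lsp2 (FBgn0002565) ranged from 3.30 to 466 CPM in wild type (median 153) and from 360 to 3430 CPM in Clk-Jrk (median 1460), 11.1-fold higher (3.48 ± 1.02, adjusted p = 0.0318). Lsp1beta ranged from 3.08 to 80.7 CPM and from 45.0 to 1430 CPM, 9.71-fold higher (3.28 ± 0.86, adjusted p = 0.0216). In both genes the groups overlapped and the libraries of each genotype were widely spread, and neither passed without wild-type replicate 1 (adjusted p = 0.0532 for Lsp2 and 0.103 for Lsp1beta). The 3 yolk protein genes did not pass.

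Of 24 antimicrobial peptide genes, 6 rose and 0 fell, 25.0% called. Over all genes 25.2% were called in either direction and 12.5% were higher. The antimicrobial peptide genes that rose were 2 Daisho genes (Dso1, Dso2), the Baramicin genes BaraA1 and BaraA2, BomBc2 and BomT1, which are all effectors of the Toll pathway. Dso1 ranged from 98.4 to 181 CPM in wild type (median 164) and from 255 to 785 CPM in Clk-Jrk (median 388), 2.85-fold higher with no overlap (1.51 ± 0.28, adjusted p = 0.0051). BaraA1 rose 2.35-fold and BaraA2 2.81-fold without overlap (adjusted p = 0.00597 and 0.0106), but they are near-identical copies and their shares are uncertain. The highest library for these was Clk-Jrk replicate 2 at ZT 6. In recognition and signalling 7 of 31 genes rose and 2 fell, 29.0% called. PGRP-LC, the receptor of the Imd pathway, rose from a median of 26.3 CPM (22.3 to 45.3) to one of 97.6 CPM (52.0 to 108), 2.95-fold with no overlap (adjusted p = 0.00243). GNBP1, a Toll pathway sensor, was 1.90-fold higher, while PGRP-SD and Tab2 fell. Of 13 haemocyte markers, which belong to blood cells, 3 were higher (PPO1, NimC1, NimC2), 23.1% called. Their summed level ranged from 1330 to 2990 CPM in wild type and from 1420 to 2520 CPM in Clk-Jrk. Their part in the immune counts was not tested. With wild-type replicate 1 left out, 0 haemocyte markers were higher and 2 lower. Without wild-type replicate 1, 4 antimicrobial peptide genes and 3 recognition genes were higher, and on the TPM scale 2 recognition genes were higher and 4 lower.

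Heat shock genes were lower, 13 of 24 with 1 higher, Hsc70-2, and a list median of −1.03. The Hsp70 copies had the widest differences. Hsp70Ab ranged from 51.9 to 288 CPM in wild type (median 154) and from 0.18 to 77.4 CPM in Clk-Jrk (median 8.19), 11.9-fold lower (−3.57 ± 0.85, adjusted p = 0.0152). Hsp70Bb ranged from 6.06 to 75.2 CPM and from 0 to 3.62 CPM (−4.63 ± 0.86, adjusted p = 0.00565), and Hsp70Aa, Hsp70Bc and Hsp70Bbb were lower as well. The Hsp70 genes are near-identical, so the split between copies is uncertain. The small heat shock genes Hsp22, Hsp23, Hsp26 and Hsp27 fell too, Hsp26 from a median of 95.0 CPM (58.1 to 274) to one of 20.4 CPM (6.30 to 60.7), 5.33-fold (adjusted p = 0.0061). The highest Hsp26 value in each genotype came from the library with that genotype's highest ovary marker sum, 274 CPM beside 9390 CPM in wild-type replicate 1 at ZT 2 and 60.7 beside 3790 in Clk-Jrk replicate 1 at ZT 10. The next wild-type value, 143 CPM at ZT 10 in replicate 2, came with the lowest wild-type ovary sum, 1390 CPM. The ovary sums carry no TMM factor, unlike the Hsp26 values. With ovary and photoreceptor marker means as covariates Hsp26 was lower by a log2 difference of −2.08 (adjusted p = 0.00643). These 4 genes form a cluster on arm 3L, and Hsp26 is 150 tested genes from Clk. Hsp68, on arm 3R, was 2.81-fold lower (adjusted p = 0.00291). With wild-type replicate 1 left out, 8 members were lower and 0 higher.

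Chaperones of the endoplasmic reticulum moved the other way, with 9 of 21 higher and 0 lower. Pdi, a disulphide isomerase, rose 1.51-fold from a median of 808 CPM (545 to 848) to one of 1110 CPM (1010 to 1390) without overlap (adjusted p = 0.0081). Edem2, ERp60 and Ero1L rose 1.56-fold, 1.41-fold and 1.45-fold, also without overlap. Of 32 proteasome subunits 11 rose and 0 fell, by at most 1.5-fold (Prosalpha1). In the absence of wild-type replicate 1 there were 4 higher endoplasmic reticulum genes and 5 higher and 1 lower proteasome genes. On the TPM scale 1 of the former was higher, and 0 of the latter higher and 4 lower.

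Fatty acyl-CoA reductases and elongases, which make long-chain lipids of the cuticle and oenocytes, had 10 of 28 members higher and 0 lower. CG17560 ranged from 775 to 2060 CPM in wild type (median 1060) and from 2400 to 3680 CPM in Clk-Jrk (median 3420), 2.65-fold higher with no overlap (1.41 ± 0.20, adjusted p = 0.00153). Its neighbour and paralogue CG17562 was 1.76-fold higher with overlap (adjusted p = 0.0139), and reads shared by the paralogues could be divided between them. The summed level of 12 oenocyte and epidermis markers ranged from 52100 to 98500 CPM in wild type and from 58500 to 83700 CPM in Clk-Jrk, and 2 of 11 tested, Cpr and FarO, were higher. On the TPM scale 2 members of the reductase list were higher and 1 lower.

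Housekeeping lists gave no common direction across settings. Of 82 cytosolic ribosomal protein genes 9 were higher and 2 lower, of 73 mitochondrial ones 13 and 2, and of 66 nuclear-encoded oxidative phosphorylation genes 1 and 5. Without wild-type replicate 1 these counts became 5 and 11, 4 and 2, and 1 and 22. RpL34b, a copy of a large-subunit protein gene, had the largest fall among ribosomal genes that passed, 2.33-fold (−1.22 ± 0.25, adjusted p = 0.00782).

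Of 12 mitochondrially encoded RNAs tested, 2 were lower and 10 did not pass. mt:ND6, a subunit of complex I, ranged from 18.7 to 84.9 CPM in wild type (median 43.1) and from 0.184 to 1.21 CPM in Clk-Jrk (median 0.855), 58.6-fold lower with no overlap (−5.87 ± 0.50, adjusted p = 0.000149). It summed to 4180 counts over the wild-type libraries and to 73 over the mutant ones. mt:ND4L fell 8.06-fold (−3.01 ± 0.78, adjusted p = 0.0201), and it overlaps mt:ND4 on the same strand in the annotation. The median of the list was −0.14, and its summed level ranged from 22000 to 70700 CPM in wild type and from 13300 to 47000 CPM in Clk-Jrk. mt:ND6 was also lower without wild-type replicate 1 (−5.30, adjusted p = 0.00171), while mt:ND4L did not pass there (−2.0, adjusted p = 0.15).

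The allele was brought into w1118 by backcrossing, so the allele and linked sequence near Clk on arm 3L cannot be told apart. Among the 24 genes with the highest and lowest differences, 8 lie on 3L and 6 of these lie within 200 tested genes of Clk. CG18417, 23 tested genes away on the distal side, ranged from 0 to 2.46 CPM in wild type and from 57.4 to 119 CPM in Clk-Jrk, 46 counts against 8967 in all (7.37 ± 0.76, adjusted p = 0.000302). CG8539, 18 genes away on that side, was 9.59-fold higher (adjusted p = 0.000163). On the proximal side Srg3, 167 genes away, ranged from 60.5 to 148 CPM in wild type and from 0.307 to 0.705 CPM in Clk-Jrk, 188-fold lower (−7.55 ± 0.25, adjusted p = 5.55e-08). It passed in 31 of 31 alternative fits. The septate junction gene hoka, 178 genes away on the distal side, was 19.0-fold lower (adjusted p = 0.000163), and slow, 195 genes away, 7.53-fold lower (adjusted p = 5.58e-05).

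The clock genes Pdp1 and nmo lie 2 and 15 tested genes from Clk, so this limit touches them as well, while tim and vri lie on other arms. Of the 6 tested genes on each side of Clk, Hn rose and Pdp1 and CG32365 fell (CG32365 3.49-fold, adjusted p = 0.014), and the other 9 did not pass. The share of called genes was 22% among the 25 tested genes on each side of Clk, 30.0% among 50, 26.5% among 100 and 29.8% among 200, against 24.5% on the rest of 3L. Genes called with at least a 2-fold difference made up 10.8% of the 400 genes within 200 on each side, 6.11% of the rest of 3L and 7.02% of all genes. The other arms had 23.6% (2R) to 27.6% (X) called, apart from the small arm 4 with 22.5%.

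**Figure D3:**
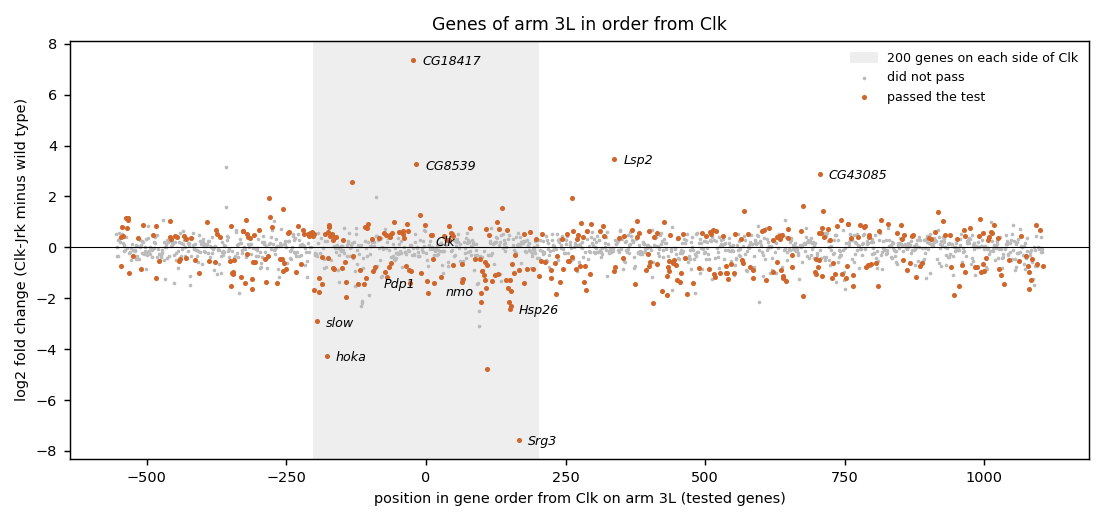
Log2 difference (Clk-Jrk minus wild type) of each tested gene on arm 3L against its place in gene order from Clk, with genes past the daytime test in orange, others in grey, and the 200 genes on each side of Clk shaded. CG18417, CG8539, Srg3, hoka, slow and Hsp26 lie within the shaded window.

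Outside 3L, CG3348 on arm 3R ranged from 0 to 0.937 CPM in wild type and from 22.1 to 38.4 CPM in Clk-Jrk (7.00 ± 0.64, adjusted p = 0.000163). It had 23 counts over 6 wild-type libraries, with 0 in 4 of them, and 2728 over 6 mutant ones. Its exons overlap Hmu on the opposite strand, and without strand information the reads of such partners cannot be told apart. In all, 52 of 146 named genes share exon sequence with another entry of the annotation. For Srg3, CG8539, CkIIalpha and Syt1 the only such entries were inserted mobile elements. CG9360 on the X was 7.36-fold higher, and CG43085, on 3L but 705 tested genes from Clk, 7.46-fold (adjusted p = 0.00246 and 0.00199). Among the lowest, zld, the pioneer factor of the early embryo, was 6.14-fold lower without overlap (adjusted p = 0.00715), and stg, a Cdc25 phosphatase gene, 4.29-fold lower with overlap (adjusted p = 0.00857). Both genes are also known to be expressed in the ovary.

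RNA of other tissues differed between libraries, and its highest levels were in wild-type libraries. The summed level of 27 ovary markers ranged from 1390 to 9390 CPM in wild type and from 227 to 3790 CPM in Clk-Jrk, highest in wild-type replicate 1 at ZT 2. Of 27 tested, 2 were lower (BicC and Vm26Ab), with a median of −1.40. Photoreceptor markers summed to 2370 CPM in wild-type replicate 1 at ZT 10 and to at most 181 CPM in the other daytime libraries, and 3 of 9 tested were lower (norpA, rdgA, rdgB). In wild-type replicate 1 at ZT 10 norpA lay at 50.8 CPM, against 17.7 to 26.6 CPM in the other wild-type libraries. There rdgA lay at 21.5 CPM (8.46 to 18.6 in the others) and rdgB at 40.9 CPM (40.3 to 48.6), so rdgB did not stand out. Gut markers summed to 6130 and 2710 CPM in wild-type replicate 1 at ZT 6 and ZT 10 and to at most 863 CPM elsewhere, with 0 of 10 past the test. Of 13 Malpighian tubule markers 3 were lower, of 5 neuron markers 2 were lower, and of 18 muscle markers 0 passed. Without the libraries of wild-type replicate 1 at ZT 2 and ZT 10, 928 genes were higher and 873 lower. With ovary and photoreceptor marker means as covariates, 460 were higher and 594 lower. In that fit the core clock list had 6 lower and 0 higher, the P450 list 17 higher and 0 lower, and the heat shock list 8 lower and 0 higher. The ecdysone list had 5 lower and the insulin list 6, and amino acid metabolism had 6 higher and 2 lower. The higher members numbered 0 in fatty acid synthesis, larval storage and sugar genes, 1 in antioxidant defence, 2 in immune recognition, 3 in the proteasome and 5 in endoplasmic reticulum folding.

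**Figure D4:**
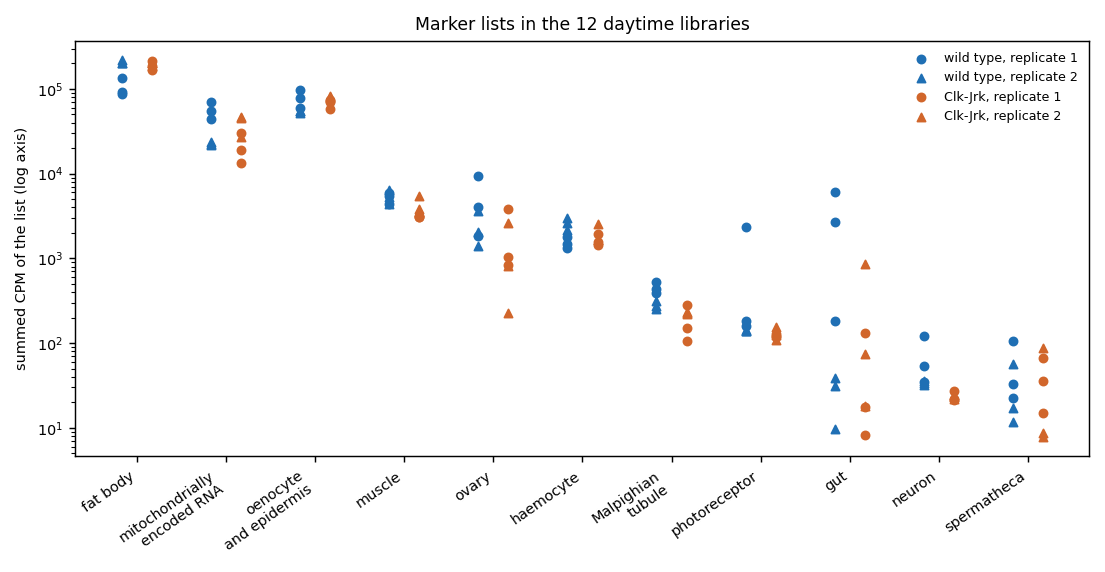
Summed CPM of each marker list, scaled to the library total without TMM factors, on a log axis, in the 12 daytime libraries. Each point is a library, blue wild type and orange Clk-Jrk, circles replicate 1 and triangles replicate 2. Against wild-type replicate 2, wild-type replicate 1 has low fat body and high mitochondrially encoded RNA, and single wild-type libraries stand out for ovary, gut and photoreceptor markers.

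The light-phase differences were then set beside those of the 12 night libraries (ZT 14, 18 and 22), which share no library with them. In a fit of the night libraries alone, 649 genes were higher (7.44% of 8720) and 563 lower (6.46%). Of 2208 genes called by day and tested at night, 2190 (99.18%) had the same sign at night, against 78.71% of all genes tested in both, and 846 (38.32%) were called at night in the same direction. A further 366 genes were called at night and not by day. The contrast of the day difference against the night difference, over 24 libraries, passed for 0 of 8751 genes in edgeR (308 at an unadjusted p under 0.05, 3.52%) and for 10 in DESeq2. On simulated data this test recovered 90.9% of 4-fold and 29.9% of 2-fold changes. In edgeR no gene is thus shown to differ more with the allele in the light than in the dark, or the reverse, and smaller differences could have been missed.

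For tim, vri and Pdp1 the fitted difference was farther from 0 at night, and none of them passed that contrast. The log2 difference of tim was −2.87 by day and −4.34 by night (day minus night 1.43, adjusted p over all genes not passed, unadjusted p = 0.0122), that of vri −2.16 and −3.34 (1.13, unadjusted p = 0.00637), and that of Pdp1 −1.33 and −2.02. The kinase genes nmo (−1.40 and −1.30) and dco (−0.58 and −0.42) lay nearer to 0 at night, and the core clock list had a median of −0.47 by day and −0.45 by night. RNA of per was lower at night (−0.73, adjusted p = 0.0412), and the day and night differences of per were not shown to differ (0.21, unadjusted p = 0.542). The smallest p-values of the contrast belonged to Uro, a tubule gene of urate oxidase (2.76 ± 0.50, adjusted p = 0.52), CG17562 (−0.92 ± 0.19) and CG17560 (−0.97 ± 0.20, adjusted p = 0.564 for both). The last 2 rose by day by 0.81 and 1.41 and by night by 1.69 and 2.34. Srg3, CG3348, EcR and Cyp6a8 had similar differences in both phases, −7.55 and −7.02, 7.00 and 7.20, −1.28 and −1.35, and 3.43 and 3.80 by day and by night. By night the groups overlapped for EcR, with Clk-Jrk replicate 1 at ZT 14 at 21.5 CPM against 18.3 to 27.3 CPM in wild type.

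**Figure D5:**
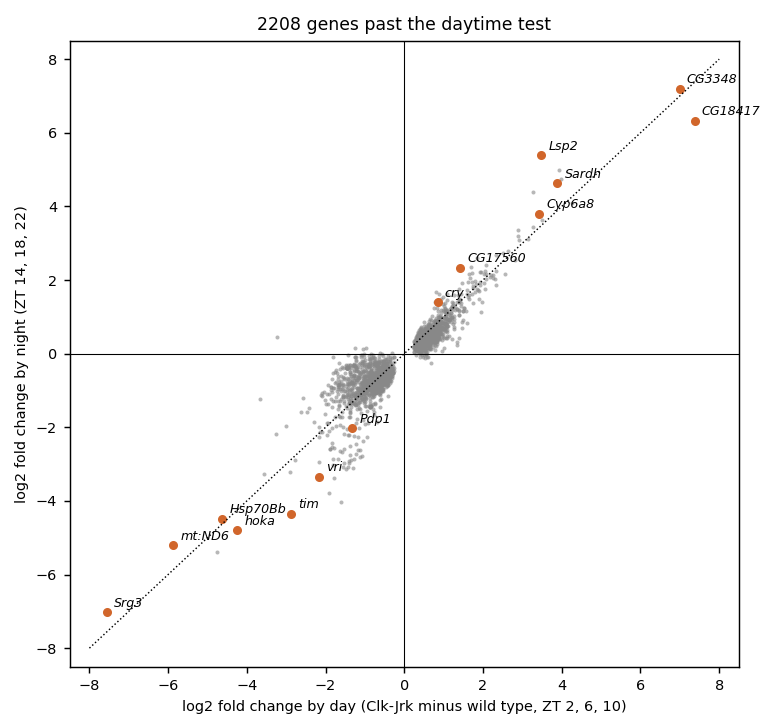
Log2 difference (Clk-Jrk minus wild type) by night, at ZT 14, 18 and 22, against that by day, at ZT 2, 6 and 10, for the 2208 genes past the daytime test that were tested in both; the dotted line marks equal values and orange points are named genes. Nearly all points keep their sign, and tim, vri and Lsp2 lie farther from 0 by night.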

How the data were processed

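Poly(A) RNA was sequenced. Per the submitters' processing notes the authors ran kallisto 0.46.2, and they deposited estimated counts for each gene with no scaling across libraries, and TPM (scaled for transcript length and library total) for 13969 genes. The labels do not state the transcriptome release or how transcripts were summed. Among estimated counts above 0, 79% were whole to within 0.001. Columns with no replicate number were taken as replicate 1, the other series being numbered 2.

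Estimated counts were rounded, filtered by filterByExpr within the 12 libraries, scaled by TMM and tested with edgeR 4.0.16 under R 4.3.3, adjusting by Benjamini-Hochberg over all genes tested. Tests were of genotype with ZT as a block, of both genotype by ZT terms, and of the day minus night contrast over 24 libraries. No count or median of a gene list carries a test. The gene lists, members and most alternatives were chosen with earlier results of these data known. The rule for named genes took all core clock genes, the 4 members (or fewer) of every further list that had the lowest adjusted p, the 12 highest and 12 lowest differences among genes with 1 sign at the 3 times and a log2 CPM averaging 3 or more, the 6 tested genes on each side of Clk, and, had any passed, the smallest p of the other tests. Other members of a list that passed, and Uro, were named after their values were seen. Gene order and overlaps come from the BDGP6.54 annotation, a separate source, which held 13950 of the genes.

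Total counts ran from 6471269 to 46590109, and the spread between libraries gives the precision. On simulated data with 8886 genes the daytime test recovered 97.0% of 4-fold, 65.7% of 2-fold and 13.4% of 1.5-fold changes, with 5 false calls. Alternatives were RLE size factors, DESeq2 1.42.0, limma 3.58.1 on log2(TPM + 1) for genes with a mean TPM of at least 1, other filters and thresholds, a replicate term, libraries or times left out, and marker covariates. Leaving out the 3 libraries of wild-type replicate 1, the night fit and the centring of TPM were chosen after seeing the data. Tables and plots were made in Python 3.11.15. Wild type at 18 °C was not used here.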

Additional observations from a re-analysis of the deposited data

Results flagged for a closer look

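Of 292 groups of 6 libraries checked for the 146 named genes, 34 (11.6%) held a library whose gap to the nearest other was past Dixon's 95% critical value for 6 samples as a share of the group's range, where chance gives about 5%. Values are log2 CPM, and each is followed by the range of the other 5 libraries of its genotype.

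Clk-Jrk replicate 1 at ZT 10 was low for Cyp6a21 at 5.21 (5.79 to 6.01), Agpat3 at 7.97 (8.46 to 8.70), fabp at 10.24 (10.66 to 10.84) and hgo at 6.59 (7.22 to 7.59). In the same library PGRP-LC at 5.70 (6.41 to 6.76), CG17560 at 11.23 (11.67 to 11.85), CG17562 at 7.89 (8.45 to 8.72) and Ugt35C1 at 7.26 (8.02 to 8.34) lay below the others. In the same library GstZ2 at 5.36 (6.01 to 6.17), COX8 at 5.29 (5.64 to 5.85), hoka at -0.98 (1.14 to 1.69) and CG8492 at 0.44 (1.29 to 1.65) lay below the others. Clk-Jrk replicate 1 at ZT 10 was high for ftz-f1 at 4.72 (3.26 to 3.77).

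Wild-type replicate 1 at ZT 2 was low for Agpat3 at 7.26 (7.81 to 8.00), CRAT at 4.88 (5.44 to 5.68), Mtp at 6.71 (7.69 to 8.03) and Glyp at 8.81 (10.03 to 10.59). In the same library Edem2 at 5.49 (6.16 to 6.34), Pdi at 9.09 (9.58 to 9.73), Keap1 at 3.71 (4.34 to 4.61) and CG30427 at 4.04 (4.68 to 4.84) lay below the others. In the same library Cyp9h1 at 1.40 (2.43 to 2.66) and Cpr at 11.10 (11.52 to 11.75) lay below the others. Wild-type replicate 1 at ZT 2 was high for Glut1 at 4.54 (3.80 to 4.06).

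Clk-Jrk replicate 2 at ZT 6 was high for BaraA2 at 9.88 (8.14 to 8.70) and Hsp70Aa at 3.81 (-3.16 to -1.61). Clk-Jrk replicate 2 at ZT 6 was low for Tmem43 at 3.91 (4.24 to 4.39). Wild-type replicate 1 at ZT 6 was low for jet at 2.27 (3.23 to 3.57), Atg6 at 3.69 (4.04 to 4.23) and mRpS17 at 3.50 (3.85 to 4.03). Clk-Jrk replicate 2 at ZT 10 was low for CG7457 at 5.25 (5.61 to 5.79). Clk-Jrk replicate 1 at ZT 2 was high for mRpL24 at 5.39 (5.03 to 5.16). Wild-type replicate 1 at ZT 10 was high for CG3348 at 0.07 (-3.16 to -1.96). Wild-type replicate 2 at ZT 10 was low for GstZ2 at 3.67 (4.59 to 4.99).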

How the results depend on the processing

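Against 1108 higher and 1127 lower genes by day, several alternatives stayed within 1.5 times. These were RLE size factors (1074 and 1137), DESeq2 (1456 and 1605), no filter (944 and 926) and a floor of 3 on the mean log2 CPM (950 and 1000). Others were no ZT block (1254 and 1064), the fit of 24 libraries (1180 and 1419) and a run without ZT 10 (1243 and 1567). A further run (928 and 873) left out wild-type replicate 1 at ZT 2 and ZT 10, high in ovary and photoreceptor markers. Wild-type replicate 1 at ZT 6, with the highest daytime gut marker sum (6130 CPM), stayed in that run. Deviations of same-numbered samples correlated at −0.157, −0.0319 and −0.529 at ZT 2, 6 and 10, so the numbers do not pair the samples, and with a replicate block the counts were 1149 and 1118. Counts moved further on the TPM scale (341 and 1734), on centred TPM (1293 and 652, the median gene at 0.07, 66.5% higher), at an adjusted p under 0.01 (268 and 339), with a 2-fold minimum (184 and 440), with marker covariates (460 and 594), without wild-type replicate 1 (661 higher), without replicate 2 (0 and 2, against 430 and 808 at an unadjusted p under 0.05), without ZT 2 (52 and 74) and without ZT 6 (61 and 98). The last 4 use fewer samples, as did the run without ZT 10 (1243 and 1567) and one without replicate 1 of both genotypes (861 and 1151). The stricter threshold and the 2-fold minimum can only lower the counts. The cause of the other moves was not tested. Leaving out 1 library at a time gave 513 to 1516 higher and 540 to 1749 lower. The lowest were without Clk-Jrk replicate 1 at ZT 2 and the highest without Clk-Jrk replicate 1 at ZT 10. Counts also moved without Clk-Jrk replicate 2 at ZT 2 (614 and 641) or at ZT 6 (612 and 600) and without Clk-Jrk replicate 1 at ZT 6 (721 lower). Of the 2235 genes called, each had the same sign in each of these 12 runs. For differences within the day, DESeq2 called 13, limma on TPM 1, and 0 to 1 passed with a library left out, 1 without wild-type replicate 2 at ZT 6. For day against night DESeq2 called 10, and 0 passed with a library left out. Without replicate 1 or 2, differences within the day could not be fitted, as 1 library per genotype and time remains.

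Reversed values belonged to genes that did not pass, apart from Prx2, which lay at −0.018 on the TPM scale. On that scale cyc was −0.25, slmb −0.25, Mcad −0.038, CG8281 −0.22 and Tmem43 −0.28. Without replicate 1 and without replicate 2 in turn, cyc was −0.051 and 0.19, CkIIalpha 0.18 and −0.47, Mcad −0.018 and 0.59, CG8281 −0.20 and 0.345, and Tmem43 −0.19 and 0.25. Without replicate 2, CG8492 was −0.045 and Snmp2 −0.19. With wild-type replicate 1 left out, CkIIalpha was 0.15, Mcad −0.075, CG8492 −0.095, CG8281 −0.090 and Tmem43 −0.099. With marker covariates cyc was −0.022, CkIIalpha 0.052, Mcad −0.00013 and CG8492 −0.077. CG8492 was also −0.11 without wild-type replicate 1 at ZT 2 and ZT 10, and −0.079 without wild-type replicate 1 at ZT 2 alone. It was −0.12 without Clk-Jrk replicate 2 at ZT 10, −0.051 without ZT 2 and −0.0022 in the fit of 24 libraries. Tmem43 was −0.006 without wild-type replicate 1 at ZT 6 and −0.019 without ZT 10. Of the daytime libraries, wild-type replicate 1 at ZT 2 had the lowest depth.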

Other observations

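Autophagy and stress peptide genes held few calls by day. Of 21 autophagy genes, Atg2 (0.65 ± 0.21, edgeR adjusted p = 0.0441) and Atg6 (0.51 ± 0.12, adjusted p = 0.0128), which act in the formation of autophagosomes, were higher in Clk-Jrk. Mitf, a transcription factor of lysosomal genes, was lower (−0.74 ± 0.21, adjusted p = 0.0272), and 18 members did not pass. Without wild-type replicate 1, Atg2 (0.28, adjusted p = 0.155) and Mitf (−0.34, adjusted p = 0.065) did not pass, and Atg6 did (0.41, adjusted p = 0.0322). Atg6 had no overlap between the groups, with 12.8 to 18.7 CPM in wild type and 19.8 to 26.6 CPM in Clk-Jrk. The 4 tested Turandot genes, secreted stress peptides, did not pass, with log2 differences from 0.28 to 0.59. Of the spermatheca markers only Hr39 was tested, and it was lower (−0.69 ± 0.16, adjusted p = 0.014). Hr39 is also a member of the ecdysone list.

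Several lists had more calls by night than by day in 1 direction, with no test of that difference. Sugar and glycogen genes had 2 higher and 2 lower members by day and 8 higher and 0 lower by night. Antimicrobial peptide genes had 6 higher and 0 lower by day and 3 higher and 3 lower by night. Malpighian tubule markers had 3 lower members by day and 5 by night, with a median of −0.76 by day and −2.32 by night.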
